A study of Mus musculus with 27 samples.

Results

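*Rab28* lies between the limb enhancers of the *Nkx3-2* locus and *Nkx3-2* itself, and 39 *BglII* fragments of the mouse genome describe it and the stretch that follows it. They were chosen by position alone: every fragment with its midpoint in chr5:41624976-41739500 (mm10, the same sequence as GRCm38). The gene covers chr5:41624976-41708157 on the minus strand, so its 5′ end faces *Nkx3-2* (chr5:41761483-41764501) and its 3′ end faces the enhancers. The 39 fragments span 113.45 kb of the 949826 fragments listed for each library, 51862 of them on chromosome 5. They were divided into a gene body of 22 fragments (68.4 kb), a promoter end of 8 fragments with midpoints within 10 kb of the annotated 5′ end (22.04 kb), and a stretch beyond of 9 fragments (23.004 kb) that runs on to the 25 kb flank of *Nkx3-2*. The 3′ end of *Rab28* falls on a fragment whose midpoint lies outside the rule, so the measured gene body begins at base 41628988.

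The measurements were made by 4C-Seq, in which crosslinked chromatin is cut, religated and amplified outwards from a chosen position, the viewpoint. Forelimb buds, hindlimb buds and liver of E14.5 embryos were used, with no treatment or mutation given, labelled as strain C57BL/6Ncrl, while the methods give C57BL/6NJ. Each of the 27 libraries came from 1 of 3 viewpoints (N1, N2, N3), 3 tissues and 3 replicates, a replicate being a pool of 5 to 6 embryos. The libraries of 1 tissue and 1 replicate share a template amplified with a pool of viewpoint primers, so the 3 viewpoints are not independent samples. The tissue labels could not be checked against marker genes, because contacts carry no expression.

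*Rab28* encodes a small GTPase of the RAB family, proteins that switch between a GTP-bound and a GDP-bound state and direct traffic at membranes. It is known for its part at cilia and for retinal disease in people who lack it. *Nkx3-2* encodes a homeobox repressor of cartilage maturation. An enhancer can reach its promoter across intervening genes by looping of the chromatin, and reads on the fragments in between come from ligation of the viewpoint to that intervening DNA. Because the ligated DNA is amplified, the number of reads need not equal the number of ligations. Ligation falls with distance from the viewpoint in any 4C experiment, so the interval was also set against DNA at a like distance.

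All 3 primers pointed along the plus strand towards *Rab28*, and each matched the genome beside a *BglII* site. They are shown because every read of the interval began at 1 of them.

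N1 primer, chr5:41165733-41165752: cttgagtttgccacccaaac
N2 primer, chr5:41403985-41404010: gcgatctgaagaactaagaagcttag
N3 primer, chr5:41535790-41535813: gttgtaagtagcagacacagagat

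The interval begins 459 kb from the N1 primer and ends 574 kb from it. For N2, whose primer lies downstream of the enhancer of that name, the distances were 221 and 336 kb, and for N3 they were 89.2 and 204 kb.

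4 *BglII* sites of the interval are shown with the bases around them, on the plus strand of GRCm38, the recognition site in capitals. The sites numbered 36, 5 and 10 (a site carries the number of the fragment before it) had the same number of reads on both flanking fragments in the most libraries, and site 27 is the site nearest the *Rab28* start that had such pairs in more than 3 libraries.

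Site 36, chr5:41734133-41734192: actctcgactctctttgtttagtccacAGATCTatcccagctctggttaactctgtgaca
Site 5, chr5:41646366-41646425: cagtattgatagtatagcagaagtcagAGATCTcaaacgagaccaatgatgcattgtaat
Site 10, chr5:41654620-41654679: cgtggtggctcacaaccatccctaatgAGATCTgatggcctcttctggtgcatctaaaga
Site 27, chr5:41709671-41709730: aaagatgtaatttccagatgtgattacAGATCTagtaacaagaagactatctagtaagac

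Site 36 lies 26.003 kb past the 5′ end of *Rab28*, on the side of *Nkx3-2*, and had equal counts on both sides in 9 libraries. Site 5 lies in the gene body, at −61.8 kb from that end, and had them in 7 libraries. Site 10, also in the gene body, had them in 6 libraries, and all of the 100 bases on each side of it are marked as repeats in the genome sequence. Site 27 lies 1.54 kb past the 5′ end and had them in 4 libraries.

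The promoter of *Rab28* is shown because it is the end of the gene at which contacts would touch its start. It is the RefSeq stretch of 300 bases around the transcription start, most of it upstream, chr5:41708130-41708429 (GRCm38.p6, minus strand), with CpG pairs in capitals.

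*Rab28* promoter: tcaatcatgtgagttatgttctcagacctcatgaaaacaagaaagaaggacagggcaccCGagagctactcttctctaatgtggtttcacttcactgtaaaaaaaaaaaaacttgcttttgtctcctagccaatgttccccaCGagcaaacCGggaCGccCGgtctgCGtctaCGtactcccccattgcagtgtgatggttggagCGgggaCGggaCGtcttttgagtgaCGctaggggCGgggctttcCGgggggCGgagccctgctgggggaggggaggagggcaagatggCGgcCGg

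It holds 16 CpG pairs, against a median of 7 over 32851 promoters of the same length, and 31.4% of those hold more. CG on either strand occurs in 94.6% of them. It holds no AGATCT, the *BglII* site, which reads the same on both strands and occurs in 7.37% of those promoters. The promoter therefore lies whole on 1 fragment, number 26 of the 39 counted from the side of the enhancers.

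The interval received few reads. Over the 27 libraries it held 1136 reads, 101 of them from N1, 215 from N2 and 820 from N3. Total counts per library ran from 2984 to 20134 for N1, from 165471 to 570405 for N2 and from 924023 to 2376866 for N3. A read was found somewhere in the interval in 19 of 27 libraries, 12 of 18 from limb and 7 of 9 from liver. Hindlimb replicate 2 had none from any viewpoint. Liver replicate 3 stood apart from the other libraries: it had reads on 23.1, 53.8 and 59.0% of the 39 fragments from N1, N2 and N3, the most for each viewpoint, and also on the most fragments of chromosome 5 (1.90, 4.82 and 7.10%). Results that turn on it are given with and without it.

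Reads came in pairs. Of the 132 fragment values above 0 in the interval, 96 (72.7%) equalled a neighbouring fragment, which was 100% of the N1 values, 63.8% of the N2 values and 70.3% of the N3 values. Fragment boundaries lie 1 base into the recognition site, so a read across a site may be counted on both fragments. Whether a pair is a single ligation was not tested. Totals of reads and of fragments with reads are given as deposited and may count such a pair on both sides. Only 3 fragments had reads in all 3 replicates of any tissue and viewpoint, all 3 of them in liver from N3. Over all libraries 31 fragments were read at least once and 27 in at least 2.

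**Figure D1:**
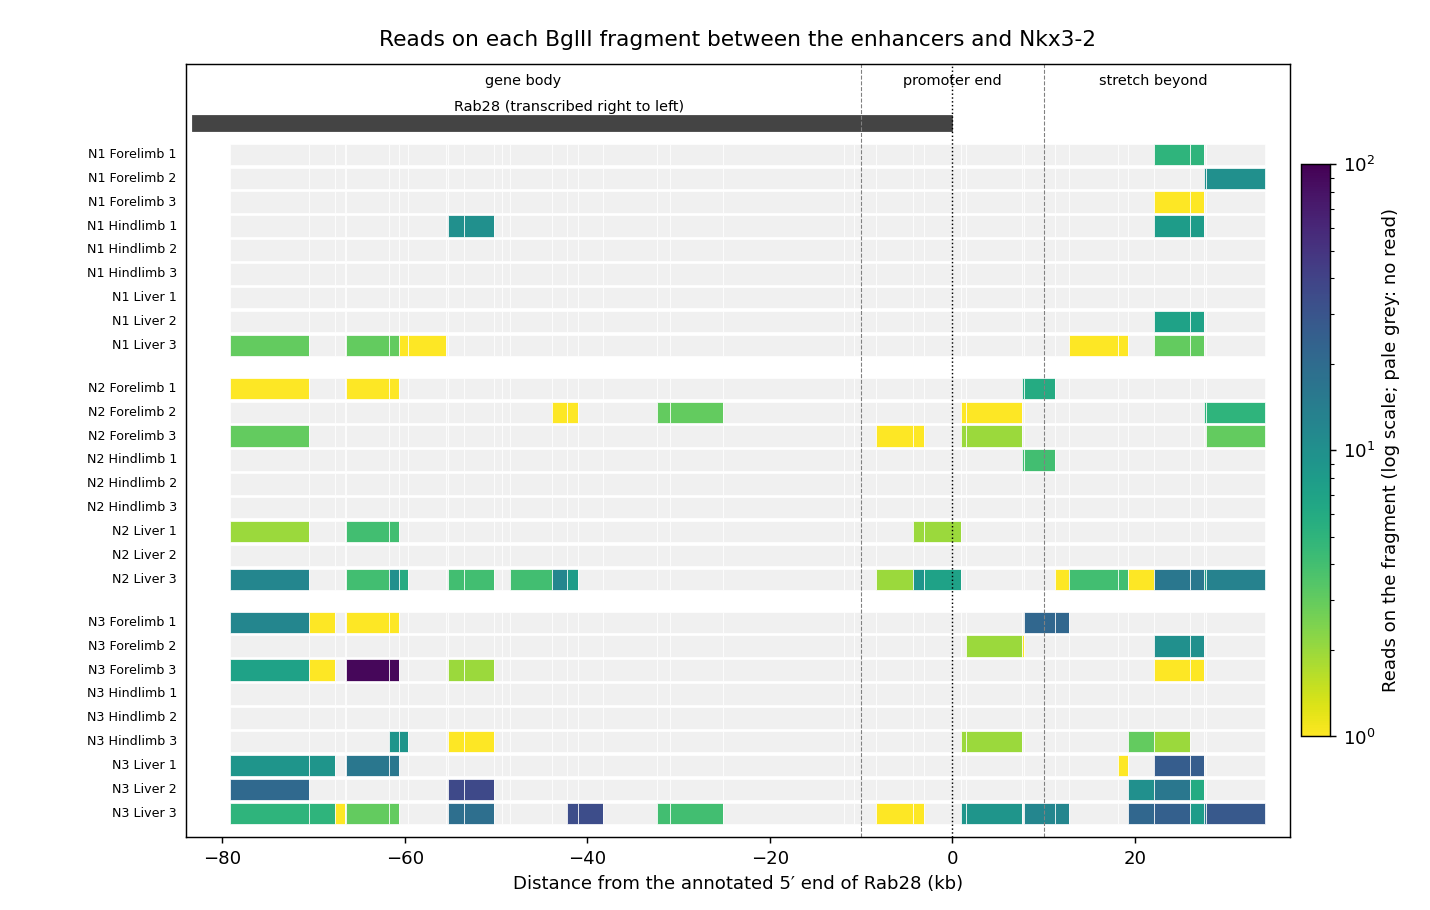
Reads on each of the 39 fragments (coloured boxes, log colour scale, pale grey for no read) in each of the 27 libraries (rows), against distance from the annotated 5′ end of *Rab28* in kb. Reads are scattered, N1 libraries had none at the promoter end, and a block that reaches from the gene body into the promoter end is grey in all 27 libraries.

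The level of the interval was expressed as RPKM, the reads per kb of the 39 fragments scaled to the total count of the library. From N1 it was 4.38, 15.8 and 1.16 RPKM in forelimb replicates 1 to 3, 37.5, 0 and 0 in hindlimb, and 0, 10.97 and 11.99 in liver. The tissues overlapped, and the highest library was a hindlimb library beside which the other hindlimb libraries had no read. Means were 7.10 ± 7.68 RPKM in forelimb, 12.5 ± 21.7 in hindlimb and 7.65 ± 6.65 in liver (SD, n = 3 each).

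From N2 the level was 0.232, 0.366 and 0.394 RPKM in forelimb, 0.145, 0 and 0 in hindlimb, and 0.229, 0 and 5.57 in liver. Liver replicate 3 lay above every other library and held 146 of the 215 reads, while the 3 forelimb libraries held 15, 20 and 12. Means were 0.330 ± 0.0865 RPKM in forelimb, 0.0483 ± 0.0837 in hindlimb and 1.93 ± 3.15 in liver (SD, n = 3 each). Every forelimb library lay above every hindlimb library.

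From N3 the level was 0.293, 0.141 and 1.24 RPKM in forelimb, 0, 0 and 0.167 in hindlimb, and 0.465, 0.523 and 1.03 in liver. All 3 liver libraries lay above 5 of the 6 limb libraries, and forelimb replicate 3 lay above all of them. Means were 0.558 ± 0.596 RPKM in forelimb, 0.0557 ± 0.0965 in hindlimb and 0.674 ± 0.314 in liver (SD, n = 3 each). In order of the means the tissues ran liver, forelimb, hindlimb, and the ranges of neighbours in this order overlapped.

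A library without reads allows up to the level of 3 counts. For N1 this was 8.86 and 3.00 RPKM in hindlimb replicates 2 and 3 and 1.39 in liver replicate 1. For N2 it was 0.107 and 0.160 in hindlimb replicates 2 and 3 and 0.0630 in liver replicate 2, and for N3 it was 0.0162 and 0.0286 in hindlimb replicates 1 and 2. These limits cover counting error only, since amplified reads without molecular identifiers are not independent ligations. RPKM falls from N1 to N3 as the library totals rise, so levels were not compared between viewpoints.

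**Figure D2:**
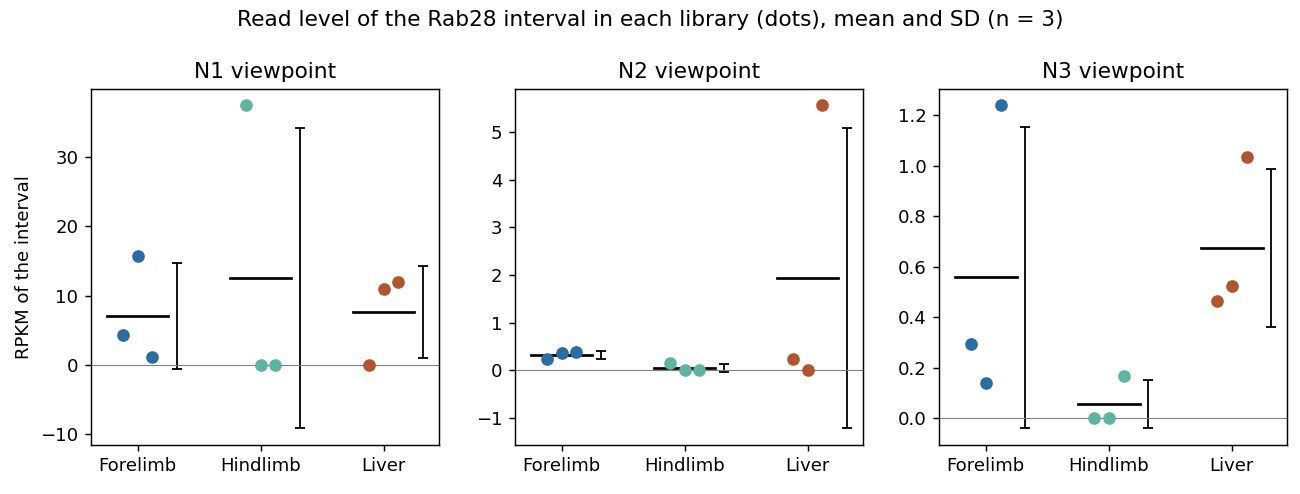
RPKM of the interval in each library (dots), with the mean of each tissue (line) and its SD (bar, n = 3), for the viewpoints N1, N2 and N3 on separate scales. The hindlimb libraries lie at 0 in 6 of 9 cases, and liver replicate 3 lies at 5.57 RPKM from N2.

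Limb and liver were compared to ask whether the viewpoints touched the *Rab28* interval more often in limb buds than in liver. In the paper, reporter assays showed limb activity of N1 and N3 at an earlier stage than these libraries, and N2 was not tested. On the scale of log2 (RPKM plus the RPKM of 0.5 reads), limb minus liver was −0.35 for N1 (exact permutation test, two-sided, p = 0.857, adjusted over the 3 viewpoints 0.857), −1.38 for N2 (p = 0.548, adjusted 0.821) and −3.32 for N3 (p = 0.143, adjusted 0.429), with n = 6 limb and 3 liver libraries each. No difference exceeded the spread between libraries. Without liver replicate 3 the N2 difference was 0.89, of the opposite sign (exact permutation p = 0.679). The N1 difference also turned sign on leaving out hindlimb replicate 2 or 3 (0.23 in both cases), liver replicate 2 (0.43) or liver replicate 3 (0.50).

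Forelimb minus hindlimb was 1.45 for N1 (exact permutation p = 0.6), 3.69 for N2 (p = 0.1) and 5.13 for N3 (p = 0.2) on the same scale, where 0.1 is the smallest p that 3 against 3 libraries can give. Adjusted over the viewpoints, p was 0.6, 0.3 and 0.3. In each viewpoint 2 of 3 hindlimb libraries had no read, so the size of these differences rests on the pseudocount. Without the stretch beyond, the N1 value was −1.92, of the opposite sign.

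The reads were next followed along the gene. From N1 the stretch beyond *Rab28* had reads in all 6 libraries that had any, the gene body in 2 and the promoter end in none. Reads on the stretch beyond were 10, 20 and 2 in forelimb, 16, 0 and 0 in hindlimb and 0, 14 and 8 in liver. Reads on the gene body were 20 in hindlimb replicate 1 and 11 in liver replicate 3. As reads per kb the stretch beyond lay above the gene body in 6 libraries, equal at 0 in 3 and below in none, by a mean of 2.04 ± 2.11 on the log2 scale (SD, n = 9, pseudocount 0.025 reads per kb). The exact sign-flip permutation p was 0.03125, and 0.1875 after adjustment over the 6 comparisons of stretches.

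From N2 the promoter end held 12, 2 and 6 reads in forelimb, 8, 0 and 0 in hindlimb and 4, 0 and 18 in liver. The gene body held 3, 8 and 3 in forelimb, none in hindlimb, and 10, 0 and 64 in liver. The promoter end was the higher per kb in 4 libraries and the lower in 2, with a mean difference of 0.99 ± 1.61 on the log2 scale (n = 9, exact sign-flip permutation p = 0.188, adjusted 0.406). The stretch beyond and the gene body differed by 0.02 ± 1.44 (p = 0.938 by the same exact permutation test), and that sign turned without liver replicate 3 (−0.17), forelimb replicate 2 (−0.19) or forelimb replicate 3 (−0.12).

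From N3 the gene body, the longest of the 3 stretches, held the most reads: 15, 0 and 198 in forelimb, 0, 0 and 20 in hindlimb, and 50, 93 and 131 in liver. The promoter end held 22, 3 and 0 in forelimb, 0, 0 and 4 in hindlimb, and 0, 0 and 32 in liver. Per kb the promoter end was lower than the gene body in 5 libraries and higher in 2, by −1.54 ± 3.46 on the log2 scale (n = 9, exact sign-flip permutation p = 0.203, adjusted 0.406). The stretch beyond minus the gene body was 0.60 ± 2.60 (p = 0.484, exact sign-flip permutation, adjusted 0.6), higher in 5 libraries and lower in 2. In these sparse libraries none of the 6 differences between stretches passed the threshold of 0.05 after adjustment. Whether any of them differed between limb and liver was tested as well, in a family of 12 differences with those to expectation and to the *Nkx3-2* flank, and no adjusted p fell below 0.833 (exact permutation, n = 6 and 3).

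**Figure D3:**
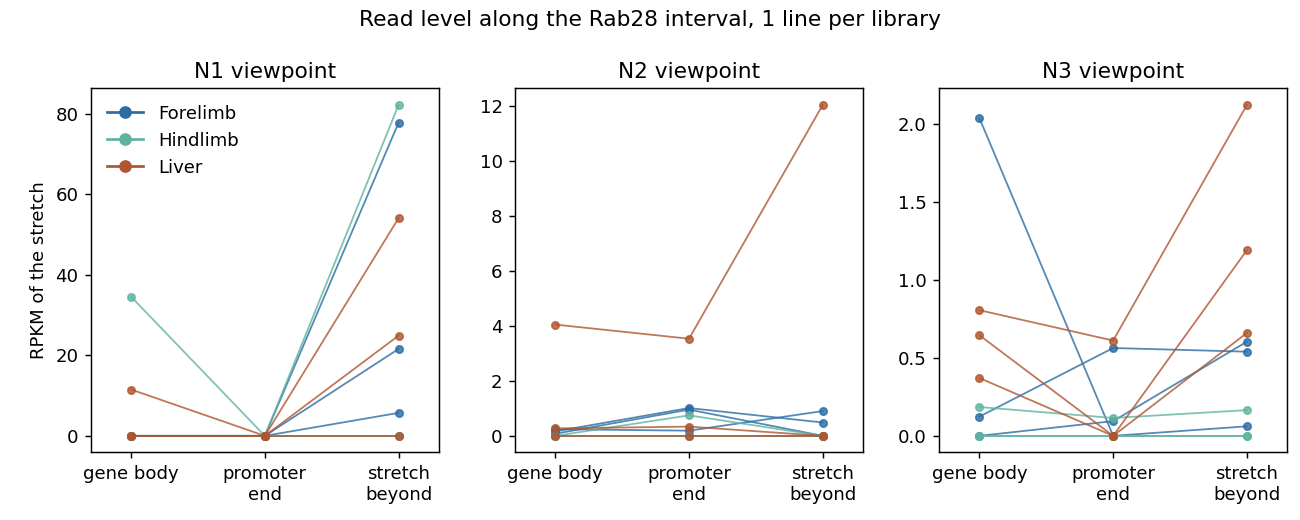
RPKM of the gene body, the promoter end and the stretch beyond, with 1 line per library coloured by tissue, for each viewpoint on its own scale. All N1 libraries lie at 0 at the promoter end, and the N2 panel is set by liver replicate 3, at 12.04 RPKM in the stretch beyond.

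At the start of the gene itself, fragment 26 (chr5:41705018-41709057, 4.04 kb) holds the annotated 5′ end and exon 1 of the *Rab28* transcript that GENCODE numbers first. It had reads in 2 of the 27 libraries, 2 reads in N2 liver replicate 1 and 7 in N2 liver replicate 3. No limb library and no N1 or N3 library had a read on it. Both of its neighbours were read more often: fragment 25 in 4 libraries, and fragment 27, bounded by site 27 shown above, also in 4, of which 3 were limb libraries. The median over the 39 fragments was 3 libraries. The topologically associating domain (TAD) around the gene, chr5:41050000-41810000, has 251 fragments outside 20 kb of the viewpoints. Of these, 155 were read in more libraries than fragment 26.

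The longest unread stretch ran from the gene body into the promoter end. Fragments 21 to 23 (chr5:41683066-41699801) had no read in any of the 27 libraries over 16.7 kb, at −25.1 to −8.36 kb from the 5′ end, and carry exons 3 and 4 of the same transcript. Fragment 23 is 1 of the 8 fragments of the promoter end. Fragment 21 alone is 13.25 kb long, and only 1 fragment of the TAD is longer. Elsewhere in the TAD, outside the viewpoints' surroundings of 20 kb, the longest unread run measured 12.4 kb, and by number of fragments the longest held 9, against 3 here. In the interval 8 of 39 fragments were never read (20.5%), close to the 47 of 212 fragments in the rest of the TAD (22.2%). By length they made up 21.9% of the interval and 8.89% of the rest of the TAD. Of fragments over 5 kb, 2 of 7 in the interval were never read, and 1 of 27 in the rest of the TAD. These are counts over fragments that share their libraries, and no test was made of them.

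The fragments also differed in how often they were read. Fragment 36 (chr5:41730255-41734160, 24.1 kb past the 5′ end by its midpoint) had reads in 12 libraries, 5 from N1, 1 from N2 and 6 from N3. Fragment 37 (chr5:41734161-41735743), on the other side of site 36, had reads in 11. In 9 libraries its count equalled that of fragment 36, so these fragments need not be separate contacts. Fragment 1 (chr5:41628988-41637655), which carries exons 5 and 6, had them in 10, and fragment 6 (chr5:41646394-41647556), an intronic fragment beside site 5, in 9. These were the 4 fragments of the interval read in 9 or more libraries, 10.3% of its fragments against 22.6% of those in the rest of the TAD. Of the 251 TAD fragments, 17 were read in more libraries than fragment 36.

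**Figure D4:**
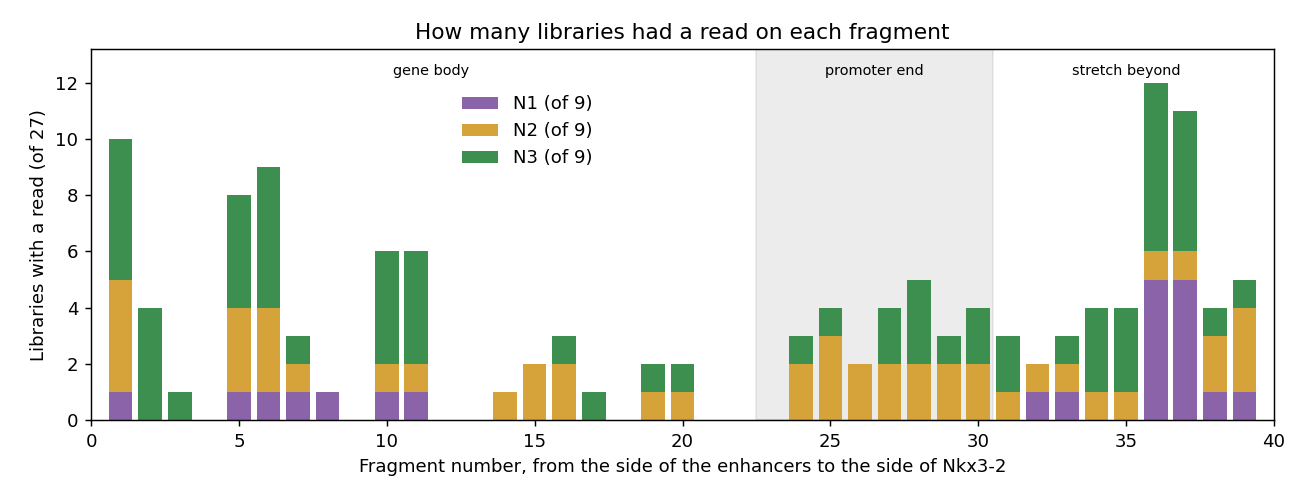
Number of libraries (of 27) with at least 1 read on each of the 39 fragments in their order along the chromosome, coloured by viewpoint, with the promoter end shaded. The highest bar is fragment 36 with 12 libraries, and fragments 21 to 23 have none.

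From N1, fragments 36 and 37 carried equal counts in every library: 5, 0 and 1 in forelimb, 8, 0 and 0 in hindlimb, and 0, 7 and 3 in liver. They therefore account for all N1 reads beyond *Rab28* except those of forelimb replicate 2, whose 20 reads lay on fragments 38 and 39, and 2 reads in liver replicate 3. Fragment 10 (chr5:41652883-41654647), beside the repeat at site 10, had N1 reads only in hindlimb replicate 1, 10 of them.

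From N2, fragment 1 had 1, 0 and 3 reads in forelimb, none in hindlimb, and 2, 0 and 12 in liver. Fragment 39 (chr5:41735952-41742438), the last before the flank of *Nkx3-2*, had 0, 5 and 3 in forelimb, none in hindlimb, and 0, 0 and 13 in liver. Fragment 6 had 1 read in forelimb replicate 1, none in hindlimb, and 4, 0 and 10 in liver. In each case liver replicate 3 was the highest library, and limb and liver overlapped.

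From N3, fragment 6 had 1, 0 and 93 reads in forelimb, 0, 0 and 9 in hindlimb, and 16, 0 and 3 in liver. Fragment 5, its partner across site 5, also had 93 reads in forelimb replicate 3, and the library had 200 reads in the whole interval. Fragment 1 had 12, 0 and 7 reads in forelimb, none in hindlimb, and 9, 21 and 5 in liver. Within forelimb the reads on fragment 6 thus ran from 0 to 93, a range that held those of both other tissues.

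Fragment 36 had 0, 10 and 1 reads from N3 in forelimb, 0, 0 and 2 in hindlimb, and 26, 16 and 25 in liver. Scaled to the library total, as RPM, this was 2.55 ± 3.82 in forelimb, 0.421 ± 0.730 in hindlimb and 10.4 ± 2.80 in liver (SD, n = 3 each). Every liver library lay above every limb library. It was the 1 member of 26 with N3 reads for which this held, and the background was 0.331% of the 604 fragments with N3 reads within 2 Mb. For N1 (13 members with reads, background 0.89%) and N2 (27 members, background 1.43%) no member could have liver above limb in every library. N1 liver replicate 1 and N2 liver replicate 2 had no read in the interval. No fragment of any viewpoint had limb above liver in every library (0%). No member could, because hindlimb replicate 2 had no read in the interval.

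Count tests were made on all fragments within 2 Mb of the viewpoint that passed a filter on low counts, which left 8 fragments for N1, 5 for N2 and 20 for N3. Fragment 36 in the N3 libraries was the 1 member among them, and it passed the filter through its liver reads. Its p-values for limb against liver are therefore given as description, and no difference is read from them. No fragment was called for limb against liver or for forelimb against hindlimb in any viewpoint by edgeR's quasi-likelihood test at an adjusted p of 0.05 (0% called). At an unadjusted p under 0.05, edgeR gave 1, 0 and 1 fragments for limb against liver from N1, N2 and N3, and 0, 0 and 2 for forelimb against hindlimb. For fragment 36, limb minus liver was −3.92 on the log2 scale (edgeR quasi-likelihood test, adjusted p = 0.171). DESeq2 gave −3.84 with an adjusted p of 0.0119 and made no other call in either contrast of any viewpoint. With library totals in place of TMM scaling, edgeR gave −2.97 with an adjusted p of 0.571, and these were the lowest and highest adjusted p over the alternatives in which this fragment was tested. Forelimb minus hindlimb was 1.65 (edgeR, adjusted p = 0.718).

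The interval was then set against DNA at a like distance, to see whether it was touched more or less than its position gives. Expected reads came from chromosome 5 fragments on both sides of the viewpoint, outside the interval and more than 20 kb from the viewpoints. Their distances ran from the nearest of the interval divided by 1.5 to its farthest times 1.5. For N1, N2 and N3 these bands were 312 to 860, 153 to 503 and 65.0 to 305 kb. They are wider than the interval and include the *Nkx3-2* flank. They also differ in their place in the TAD. On the side away from *Rab28*, the N1 band lies wholly outside the TAD, the N3 band inside it, and the N2 band across its start. The viewpoints therefore had unlike references, and their ratios were not compared with each other. From N2 the interval held fewer reads than expected in 8 of 9 libraries, with a mean of −2.41 ± 2.39 for the log2 of observed over expected reads (SD, n = 9, exact sign-flip permutation p = 0.0117, adjusted 0.0234). Forelimb ratios were −2.16, −1.01 and −0.80, hindlimb ratios 0.59, −2.11 and −5.71, and liver ratios −3.41, −6.51 and −0.54. The tissues overlapped, and hindlimb replicate 1 was the library above 0.

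From N3 it held fewer in 7 of 9 libraries, with a mean of −2.36 ± 2.60 (n = 9, exact sign-flip permutation p = 0.0156, adjusted 0.0234). The ratios were −0.93, −2.29 and 0.22 in forelimb, −7.00, −5.85 and −3.38 in hindlimb, and −1.50, 0.46 and −0.94 in liver. All hindlimb libraries lay below all others. From N1 the mean was −0.11 ± 3.77 (p = 0.906 by the exact sign-flip permutation test), with 4 libraries above 0 and 5 below. For the annotated gene alone, without the stretch beyond, N1 gave −2.32 (adjusted p = 0.0195, exact sign-flip permutation), but 7 of the 9 libraries had no read on the gene, so their ratios reflect the expected reads and the 0.5 added alone.

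These ratios have limits. For N2, hindlimb replicates 2 and 3 and liver replicate 2 had no read in the interval. For N3 the same held for hindlimb replicates 1 and 2. The ratios of these libraries reflect the expected reads and the 0.5 added alone. With fragments counted once whatever their reads, the means were −0.80 for N2 and −0.65 for N3, and neither passed the threshold (exact sign-flip permutation, adjusted p = 0.322 for both). Against a mirror interval at the same distance on the other side of the viewpoint, the N3 mean was 0.27, of the opposite sign. Sparse counts put the log ratio below 0 even without a true difference, so 0 is not its exact value under no difference.

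**Figure D5:**
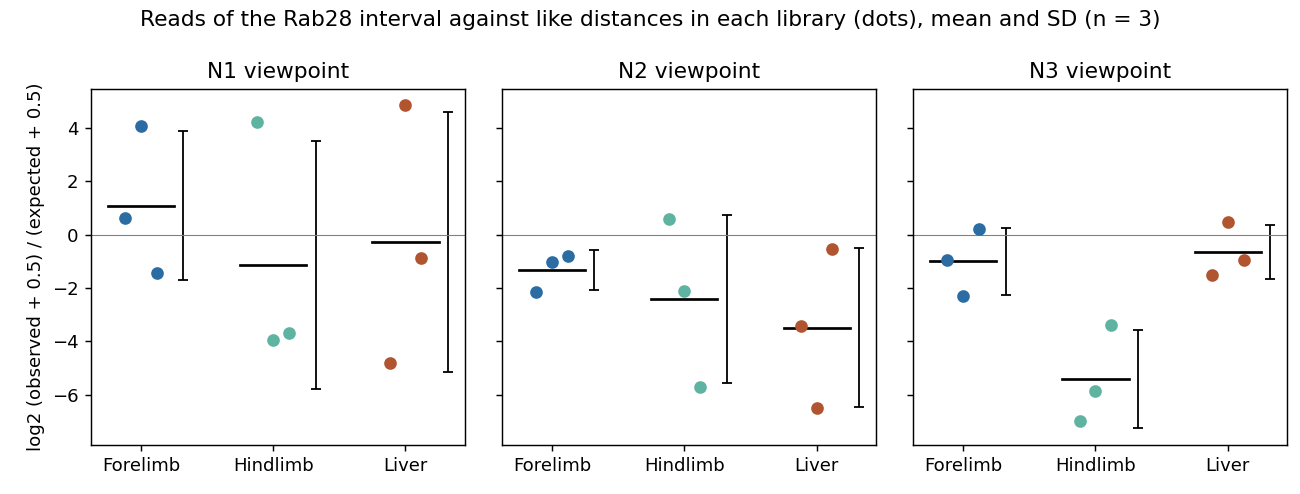
Log2 of observed over expected reads of the interval, with 0.5 reads added to each, in each library (dots), with the mean of each tissue (line) and its SD (bar, n = 3). The N2 libraries lie below 0 in 8 of 9 cases and the N3 libraries in 7 of 9, while N1 libraries lie on both sides.

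In the share of fragments touched, the interval and like distances lay closer. On average 13.4% of the interval's fragments had N2 reads and 15.3% of those at like distance, and for N3 it was 18.2 and 19.8%. For N1 the interval had the larger share, 5.98 against 3.62%, but on the side away from *Rab28* all DNA of the N1 band lies outside the TAD.

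By stretch, the N2 ratio to expectation was −3.02 ± 1.62 over the gene body, −1.22 ± 1.98 at the promoter end and −2.16 ± 2.297 beyond (log2, SD, n = 9). Over the gene body it was below 0 in all 9 libraries, 4 of them without a read there. The N3 ratio was −2.93 ± 2.88 over the gene body, −3.28 ± 2.45 at the promoter end and −0.76 ± 1.91 beyond. The N1 ratio was −2.13 ± 2.16 over the gene body, −1.87 ± 0.79 at the promoter end, where no library had a read, and 1.26 ± 2.92 beyond. For N1 and N3 the highest of the 3 means was thus that of the stretch nearest *Nkx3-2*, and for N2 that of the promoter end. Where a stretch had no read, its ratio reflects the expected reads and the 0.5 added alone, and is lower for the longer gene body. This held for the N1 gene body in 7 libraries. For N2 it held in 3 libraries at the promoter end and in 6 beyond. For N3 it held in 3 libraries over the gene body and in 5 at the promoter end. No test was made of these stretch means, and nothing is read from their order.

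The neighbour on the far side, the 21 fragments within 25 kb of the 5′ end of *Nkx3-2*, was the last comparison. The flank held 3, 43 and 163 N3 reads in forelimb, 86, 6 and 349 in hindlimb, and 130, 130 and 439 in liver. Per kb the interval was the lower in 8 of 9 N3 libraries, by −2.19 ± 2.47 on the log2 scale (n = 9, exact sign-flip permutation p = 0.03125, adjusted 0.0645). From N2 it was lower in 7 of 9 libraries, by −2.22 ± 2.63 (p = 0.0430, exact sign-flip permutation, adjusted 0.0645). From N1 it was lower in 4 and higher in 3, by −0.91 ± 2.52 (p = 0.3125, exact sign-flip permutation, adjusted 0.3125). With each region divided by its expectation at like distance the differences were −3.55 for N2 and −4.64 for N3, both past the threshold (exact sign-flip permutation, adjusted p = 0.0410 and 0.0234). The expectation of each region drew on fragments of the other, so a difference between them enters this contrast more than once. Nothing further is read from it. Leaving out forelimb replicate 1 took both undivided differences past the threshold, at −2.64 and −2.78 (exact sign-flip permutation, adjusted p = 0.0469 and 0.0234). For each viewpoint the other 8 removals of 1 library did not. In forelimb replicate 1 the order was the other way round from both viewpoints, with 2 flank reads against 15 in the interval from N2 and 3 against 59 from N3.

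Libraries of 1 template shared fragments unevenly. In liver replicate 3, 15 fragments of the interval were read from both N2 and N3, which was 71.4% of those read from N2 and 65.2% of those read from N3. In forelimb replicate 1 the shared fragments were 4 of 5 and 4 of 6. In forelimb replicate 2 it was 1 of 8 and 1 of 4, and in hindlimb replicate 3 the 9 fragments read from N3 had no N2 read. Fragment length and the number of libraries with reads were weakly related over the 39 fragments (Pearson's r = 0.09, Spearman's rho = 0.17), as a description of fragments that share the same libraries.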

How the data were processed

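Adapters were removed by the authors with cutadapt 1.10. Reads were aligned to mm10 with BWA 0.7.10-r789, blacklisted regions and poorly mapped alignments were dropped, and what was left was assigned to *BglII* fragments. Counts were deposited as whole reads on a fragment, library by library, without normalization. The deposited signal is that count per kb of fragment and was used only to check the counts. All 51861 fragment boundaries of chromosome 5 fall on AGATCT in GRCm38.p6, and GENCODE vM21 gave the genes. The titles gave tissue, viewpoint and replicate. Hindlimb replicate 3 has another replicate number in a second field, and the description of N3 liver libraries gives a different enhancer.

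Interval tests were exact permutation tests with Benjamini-Hochberg adjustment. For fragments 20 kb to 2 Mb away from a viewpoint, edgeR 4.0.16 (TMM scaling, filterByExpr) gave the main test and DESeq2 1.42.0 an alternative, both in R 4.3.3. Python 3.11.15, pandas 2.3.3, numpy 2.4.6 and scipy 1.17.1 gave the other values. The fragments named were, for each viewpoint, the 3 read in the most libraries (ties by mean RPM) and those holding a gene end. Fragments 5, 21 to 25, 27 and 38, outside that rule, and the sites shown, were chosen after their values were seen. The members, lists and tests were chosen with earlier results of these data known. The scripts were tested on simulated data. The edgeR simulation was revised after its output was seen, to fewer changed fragments and higher counts than the real ones, so it says nothing of the power at the real depth. Nothing in the labels says that replicates were separate beyond being separate pools, and p-values measure the spread between these libraries.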

Additional observations from a re-analysis of the deposited data

Results flagged for a closer look

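In 2 cases 1 limb library lay far from the other 5 in the log2 difference between promoter end and gene body. From N1, hindlimb replicate 1 had −3.67 while the other 5 limb libraries, with no reads on either stretch, were all at 0. From N3, forelimb replicate 3 had −6.87, the library in which site 5 carried 93 reads on each side and the promoter end none. Chance gives such a library in about 1 in 20 groups of continuous values. For N1 that rate does not apply, because with 5 libraries at exactly 0 any difference in the other one meets the criterion.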

How the results depend on the processing

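Of the results under alternatives other than leaving out a library, 158 kept their direction and side of the threshold. Among comparisons of the interval between tissues the exception was forelimb minus hindlimb for N1, at −1.92 over the annotated gene only. Observed against expected for N1 turned positive with fragments counted once (0.19), a mirror interval (0.94), the *Nkx3-2* flank left out (0.33), an expectation per fragment (0.032) and a pseudocount of 1 read (0.022), and was −2.32 and past the threshold over the annotated gene only, with no read on the gene in 7 of 9 libraries. For N2 and N3 it lost the call with fragments counted once (−0.80 and −0.65) and in the 6 limb libraries (−1.87 and −3.21), an alternative chosen after seeing the data. For N3 it also lost it with the flank left out (−2.09) and turned to 0.27 with the mirror interval. Dividing by the expectation at like distance took interval minus flank for N2 (−3.55) and N3 (−4.64) past the threshold, with each region part of the other's expectation. It turned promoter end minus gene body for N1 to 0.26 and gave 1.803 for N2, and gave 3.40 for stretch beyond minus gene body for N1. The last 2 passed the threshold, but each includes 3 libraries without a read on either stretch, whose sign is fixed by the longer gene body's larger expectation, so nothing is read from them. Fragments counted once took interval minus flank for N2 and N3 past it as well (−1.07 and −0.81). Stretch beyond minus gene body for N2 turned negative with fragments counted once (−0.033), per fragment (−0.19) and with a smaller pseudocount (−0.37). Fragments called were 2 in 10-kb windows for forelimb against hindlimb from N2 and 1 with DESeq2 for limb against liver from N3. The causes were not tested.

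With 1 library left out at a time, values ran from −1.99 to 0.50 (limb minus liver, N1), −3.64 to 0.89 (N2), −0.73 to 0.48 (observed against expected, N1), −0.19 to 0.37 (stretch beyond minus gene body, N2), −2.74 to −1.80 and −2.78 to −1.67 (interval minus flank, N2 and N3). Values that moved by over 1.5 times without turning sign included forelimb minus hindlimb for N1 (0.35 to 3.65), stretch beyond minus gene body for N3 (0.027 to 1.26), and for N1 interval minus flank (−1.345 to −0.44) and promoter end minus gene body (−0.82 to −0.36). Calls by edgeR ran from 0 to 2 for forelimb against hindlimb from N1, with 2 without forelimb replicate 3, and from 0 to 2 for limb against liver from N3, with 2 without liver replicate 2. None of these was a member of the interval.

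Same-numbered libraries correlated above 0.1 in 3, 4 and 2 of 9 pairs for N1, N2 and N3, over 10, 28 and 41 windows. Their mean correlation was −0.084, −0.010 and −0.051, below that of libraries with other numbers (0.045, 0.004 and 0.026). The windows are too few to settle whether the replicate numbers pair the samples. With the replicate number as a block, observed against expected stayed at −2.41 for N2 and −2.36 for N3 with an exact permutation p of 0.25, the smallest 3 blocks allow, and edgeR called 1 fragment, no member, for limb against liver from N1. Other calls were as without the block.

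Depth limits all of this: 8 of 27 libraries had no read in the interval.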
